A study of Mus musculus with 18 samples.

Results

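The DUOX and NADPH oxidase genes, enzymes whose task is to turn oxygen into superoxide or hydrogen peroxide, were followed in mouse nasal mucosa. The 9 genes were taken from the count table by symbol: Duox1, Duoxa1, Duox2, Duoxa2, Nox4, Cybb, Cyba, Ncf1 and Ncf4. All 9 were found among 54532 genes, and 8 passed the filter on low counts. Duoxa2, with 59 counts over all 18 libraries, did not pass and is given as values only. RNA was poly(A)-selected and sequenced in 18 libraries, 6 in each of 3 groups. Mice of the CRS group, a model of chronic rhinosinusitis, were given the plant protease papain intranasally, 20 µg in 20 µL, daily from day 0 to day 2 and from day 7 to day 11. Mice of the C10 group are taken to have received the same papain, since the protocol describes the drug as a treatment of CRS mice, together with C10 at 10 mg/mL, 10 µL per side, once a day for 10 days beginning with the earliest papain dose. C10 is, by the title of the series, a compound that blocks APE1, a DNA repair protein with a second activity that reduces cysteines of transcription factors such as AP-1. What the CON group received is not stated. No vehicle dose is recorded for CRS, and age, strain, sex and the time of collection are not given. Whether each library is a separate mouse is not said either, so p-values here measure the spread between libraries, which may be technical.

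DUOX enzymes sit in the apical membrane of airway epithelial cells and release hydrogen peroxide into the mucus, where lactoperoxidase uses it against microbes. Each needs a maturation factor, Duoxa1 for Duox1 and Duoxa2 for Duox2, to leave the endoplasmic reticulum. The oxidase of phagocytes is built differently. Cybb (gp91phox) and Cyba (p22phox) form a flavocytochrome in the membrane, and cytosolic subunits, among them Ncf1 (p47phox) and Ncf4 (p40phox), join it with the GTPase Rac2 when the cell is activated. Nox4 needs Cyba but none of the cytosolic subunits, makes mainly hydrogen peroxide without a stimulus, and is known from fibroblasts, smooth muscle and endothelium.

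In the mm10 build the 4 DUOX genes lie together on chromosome 2 within 68726 bases. Duox2 (ENSMUSG00000068452; 122279247 to 122298165, minus strand) and Duoxa2 (ENSMUSG00000027225; 122298900 to 122302885, plus strand) start 735 bases apart and are read away from each other. Duoxa1 (ENSMUSG00000027224; 122302191 to 122313730, minus strand) and Duox1 (ENSMUSG00000033268; 122315672 to 122347972, plus strand) form a second such pair, with starts 1942 bases apart. The ends of Duoxa2 and Duoxa1 overlap on opposite strands by 682 exon bases, which are 42.8% of the exon bases of Duoxa2 and 17.1% of those of Duoxa1. The library kit is not stated to keep the strand, so reads from this stretch cannot be assigned to either gene. Nox4 (ENSMUSG00000030562) lies on chromosome 7 from 87246096 to 87398710, Cybb (ENSMUSG00000015340) on chromosome X from 9435252 to 9487771 and Cyba (ENSMUSG00000006519) on chromosome 8 from 122424776 to 122432930. Ncf1 (ENSMUSG00000015950) lies on chromosome 5 from 134220053 to 134229625 and shares 408 exon bases, 11.1% of its own, with Gtf2ird2 on the opposite strand. Ncf4 (ENSMUSG00000071715) lies on chromosome 15 from 78244801 to 78262580.

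**Figure D1:**
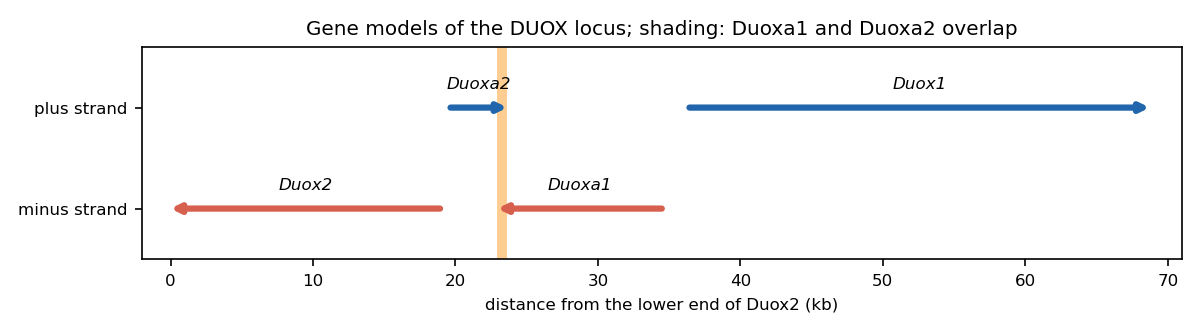
Gene models of the DUOX locus, drawn to scale in kb from the lower end of Duox2, with arrows pointing in the direction of transcription on the plus strand (upper row) and the minus strand (lower row). The 2 head-to-head pairs meet at the 682 bases shared by the ends of Duoxa2 and Duoxa1, which are shaded.

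Promoter windows of 300 bases, 250 before and 50 after the start site, were taken from RefSeq (GRCm38.p6, the assembly that mm10 names), which held 8 of the 9 genes; Ncf4 was not matched. Those of 4 genes on which the expression results turn are printed 5′ to 3′. They are Duox1 and Duoxa1, neighbours with like values, and Nox4 and Cybb. Nox4 and Cybb were closest to different cell type markers, but each also followed the markers closest to the other. The RefSeq start sites are not always the ends of the gene models given above: the windows of Cybb and Nox4 lie inside those models. Capitals mark the core letters of the myeloid factor PU.1 (GAGGAA, read as TTCCTC on the other strand) and of AP-1 (TGANTCA), each searched on both strands. The windows are chr2:122315422-122315721 (plus strand), chr2:122313681-122313980 (minus), chr7:87246399-87246698 (plus) and chrX:9469275-9469574 (minus).
Duox1: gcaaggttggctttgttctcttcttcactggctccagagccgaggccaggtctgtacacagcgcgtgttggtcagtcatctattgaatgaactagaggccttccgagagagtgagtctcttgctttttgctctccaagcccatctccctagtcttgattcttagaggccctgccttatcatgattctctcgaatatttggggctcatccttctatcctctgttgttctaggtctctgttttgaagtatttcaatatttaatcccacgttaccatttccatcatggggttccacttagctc
Duoxa1: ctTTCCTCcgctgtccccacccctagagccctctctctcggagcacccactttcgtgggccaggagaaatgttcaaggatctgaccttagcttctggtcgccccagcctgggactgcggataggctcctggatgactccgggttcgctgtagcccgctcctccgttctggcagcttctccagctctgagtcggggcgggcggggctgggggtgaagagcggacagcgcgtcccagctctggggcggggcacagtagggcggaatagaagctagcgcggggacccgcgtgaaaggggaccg
Nox4: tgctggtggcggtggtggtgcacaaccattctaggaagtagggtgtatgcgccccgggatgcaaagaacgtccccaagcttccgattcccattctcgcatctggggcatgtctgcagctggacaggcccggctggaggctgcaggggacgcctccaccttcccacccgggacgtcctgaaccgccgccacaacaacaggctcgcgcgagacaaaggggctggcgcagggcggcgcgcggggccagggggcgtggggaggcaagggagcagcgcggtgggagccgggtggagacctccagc
Cybb: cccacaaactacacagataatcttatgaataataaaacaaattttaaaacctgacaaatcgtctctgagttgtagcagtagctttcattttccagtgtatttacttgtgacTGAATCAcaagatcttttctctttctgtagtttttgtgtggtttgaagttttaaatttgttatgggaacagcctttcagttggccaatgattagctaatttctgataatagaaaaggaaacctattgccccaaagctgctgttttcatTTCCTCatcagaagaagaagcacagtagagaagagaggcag

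The Cybb window held both motifs, AP-1 from base -139 and PU.1 from base 10, counted from the RefSeq start site. It was also the poorest in G and C of the 8 windows, at 35.3%, a value below which 3.98% of all 32851 windows lay, against a median of 52.7%. Duoxa1 had a PU.1 match from base -248 in a window of 65.7% G and C with 22 CpG dinucleotides. Duox1, with 46.7% G and C and 6 CpG, had neither motif, and nor did Nox4, with 68.3% and 24 CpG. Of the windows not printed, Duoxa2 had an AP-1 match from base -168 and a TATA match (TATAAA) from base -30, while Cyba, Duox2 and Ncf1 had no match to PU.1, AP-1 or TATA. The STAT6 motif, TTC and GAA with 4 free bases between, occurred in Duox1 from base -67. Among all windows, 28.3% held the PU.1 letters, 7.81% AP-1, 6.95% STAT6 and 13.6% TATAAA. No matches overlapped each other. A match of letters is a description of the window, not a bound site.

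Library totals lay between 15883573 and 18128186 counts in C10, between 16531779 and 17523368 in CRS, and between 16510920 and 18433866 in CON. A value of 3 counts, used as the floor, equals 0.163 to 0.193 CPM (counts scaled to library size, here on library sizes adjusted by TMM factors) and covers counting error only. CRS 2, CRS 5 and CRS 1 lay farthest out on the first principal component, and values without CRS 2 and CRS 5, or without CRS 1, are given where they differ most. The tissue label was checked on marker genes. Summed sustentacular cell markers, of the olfactory lining, spanned 9312 to 16129 CPM in C10, 7191 to 15215 in CRS and 7678 to 12247 in CON, and summed macrophage and monocyte markers spanned 1242 to 2311 CPM in C10, 515 to 4107 in CRS and 1684 to 4026 in CON.

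The oxidase genes spanned a wide range of levels. Per length, as deposited FPKM averaged over the 18 libraries, Cyba stood highest at 91.8 ± 41.9 (SD, n = 18), above 97.8% of the genes tested. Cybb followed at 17.5 ± 12.0, Ncf1 at 9.69 ± 4.04 and Ncf4 at 6.73 ± 3.02 FPKM. Cyba exceeded Cybb in 18 of 18 libraries and Cybb exceeded Ncf1 in 17, so this order held nearly everywhere. The other genes were sparse. Duoxa1 averaged 0.464 ± 0.174, Nox4 0.394 ± 0.175 and Duox1 0.349 ± 0.125 FPKM, and 10.3%, 8.53% and 7.32% of the tested genes lay below them. These 3 were not ordered beyond their spread: Duoxa1 exceeded Nox4 in 13 libraries and Nox4 exceeded Duox1 in 12. Duox2 at 0.118 ± 0.0822 and Duoxa2 at 0.120 ± 0.109 FPKM were lowest, with Duox2 the higher of the pair in 10 of 18 libraries. Duox1 exceeded Duox2 in all 18 libraries.

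**Figure D2:**
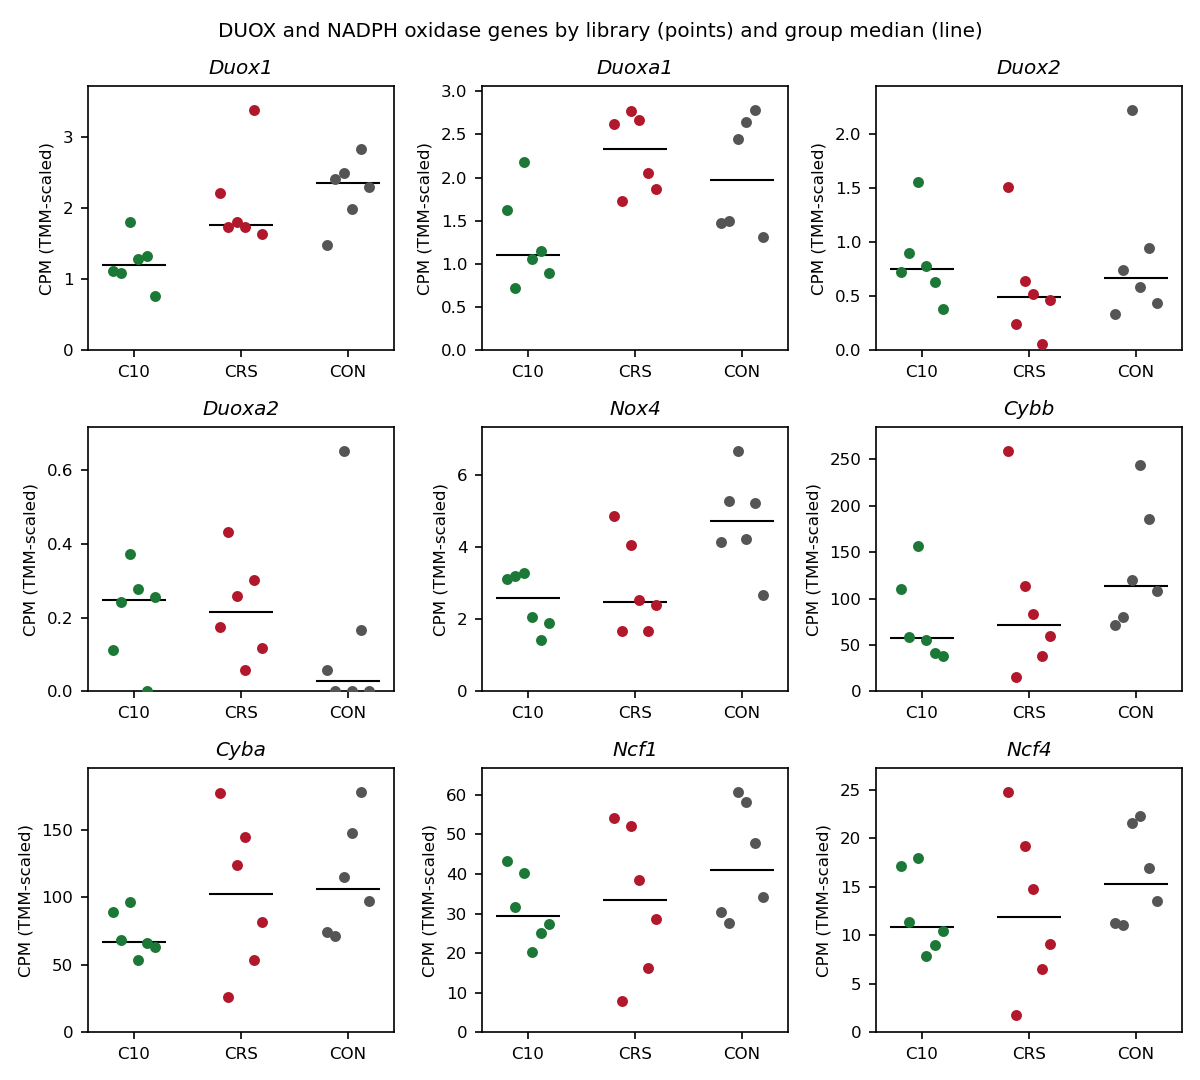
CPM of each of the 9 genes (vertical axes start at 0 and differ between panels) in the 6 libraries of C10, CRS and CON, with 1 point per library and a line at the group median. Duox1 and Duoxa1 lie low in C10, Nox4 lies high in CON, and the 4 phagocyte genes spread most within CRS, where Cybb runs from 15.3 to 259 CPM.

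Across all 3 comparisons 0 of the 8 tested oxidase genes passed edgeR's quasi-likelihood test at an adjusted p under 0.05. Few genes of any kind passed: 15 of 18291 for C10 against CRS (0.082%), 29 for C10 against CON (0.159%) and 1 for CRS against CON (0.00547%). DESeq2 called 0 oxidase genes for C10 against CRS, where 1.91% of all genes were called, 1 (Duox1) for C10 against CON, where 1.77% were, and 0 for CRS against CON, where 1.08% were. At an unadjusted edgeR p under 0.05, Duox1 and Duoxa1 were lower in C10 than in CRS, which makes 2 of 8 against 7.41% of all genes lower at that threshold. Duox1, Duoxa1 and Nox4 were lower in C10 than in CON (3 of 8, against 6.83%), and Nox4 was lower in CRS than in CON (1 of 8, against 6.3%). The median log2 fold change of the 8 genes was -0.25 for C10 against CRS, -0.66 for C10 against CON and -0.37 for CRS against CON, with medians of 0.0084, 0.012 and 0.0045 over all genes tested. In 0 of 8 genes did the groups lie fully apart, which was so for 0.88% of all genes in C10 against CRS (0.525% lower in C10), 1.82% in C10 against CON (1.08% lower) and 0.662% in CRS against CON (0.279% lower in CRS). The 3 comparisons share libraries and are not independent of each other. In bulk tissue, fewer cells of a type and less RNA per cell cannot be told apart.

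**Figure D3:**
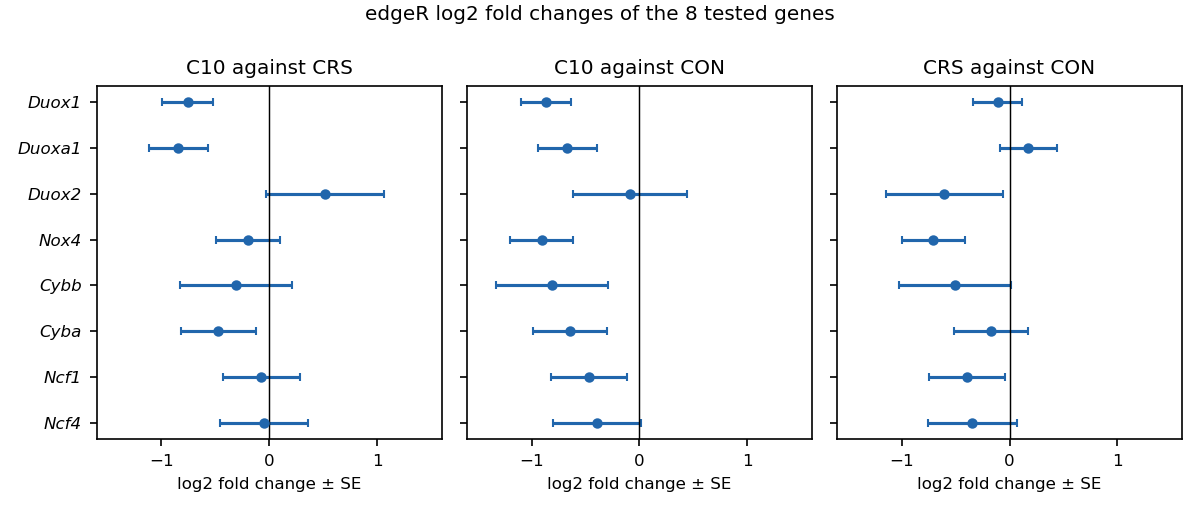
edgeR log2 fold changes (points) with their SE (bars) of the 8 tested genes, in a panel each for C10 against CRS, C10 against CON and CRS against CON, where values left of 0 are lower in the group named first. Duox1 and Duoxa1 lie at -0.76 and -0.84 in C10 against CRS and Nox4 at -0.91 in C10 against CON, and no gene passed after adjustment.

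Duox1, the epithelial oxidase with the higher level of the 2, had the lowest values in C10. Its CPM had a lowest, median and highest value of 0.766, 1.20 and 1.81 in C10, of 1.64, 1.77 and 3.38 in CRS, and of 1.48, 2.35 and 2.84 in CON. Of the 6 C10 libraries, 5 lay below every CRS library and below every CON library, and the exception was C10 3 at 1.81 CPM. The counts behind these values were 12 to 29 per library in C10, 28 to 56 in CRS and 26 to 51 in CON. The log2 fold change was -0.76 ± 0.23 (SE) for C10 against CRS, a level 1.69-fold lower (edgeR unadjusted p = 0.0045, adjusted p = 0.18). For C10 against CON it was -0.87 ± 0.23, or 1.83-fold lower (edgeR unadjusted p = 0.0015, adjusted p = 0.138; DESeq2 adjusted p = 0.0341; 0.339 at the highest over the alternatives). CRS and CON differed by -0.11 ± 0.23 (edgeR adjusted p = 0.851). The 3 groups accounted for 56% of the variance of Duox1 between libraries, a share that exceeded that of 98.6% of the genes tested, whose median was 15.5%. CRS 5 held the highest Duox1 value of all, and without CRS 5 and CRS 2 the C10 against CRS value was -0.60 ± 0.24 (edgeR unadjusted p = 0.0215, adjusted p = 0.202).

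Duoxa1, the maturation factor encoded next to Duox1, had a similar pattern. It reached 0.724, 1.10 and 2.18 CPM (lowest, median, highest) in C10, 1.73, 2.34 and 2.77 CPM in CRS, and 1.31, 1.97 and 2.78 CPM in CON. Again 5 of 6 C10 libraries lay below every CRS library, with C10 3 the exception, while 4 of 6 lay below every CON library. The log2 fold change was -0.84 ± 0.27 for C10 against CRS, 1.79-fold lower (edgeR unadjusted p = 0.00622, adjusted p = 0.194), and -0.67 ± 0.27 for C10 against CON (edgeR unadjusted p = 0.0246, adjusted p = 0.304). For CRS against CON it was 0.17 ± 0.27 (edgeR adjusted p = 0.795). With the mean level of olfactory neuron markers as a covariate the C10 against CRS value was -0.87 (edgeR adjusted p = 0.0192), and with fibroblast and macrophage markers as covariates, a choice made after seeing the data, it was -0.80 (edgeR adjusted p = 0.0414). Both covariate fits also called many more genes of any kind for C10 against CRS than the 15 without covariates, as given in the closing section. Over the other alternatives the adjusted p ran up to 0.352. With the fibroblast and macrophage covariates the C10 against CON value of Duoxa1 was smaller, at -0.24 (edgeR adjusted p = 0.735). The groups accounted for 45.5% of its variance, more than for 95.1% of genes.

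Markers of the epithelial cells that could carry Duox1 were set beside these values. Summed basal cell markers (Krt5, Krt14, Krt15, Trp63) spanned 300 to 411 CPM in C10, 319 to 600 in CRS and 373 to 582 in CON, and 4 of 4 had a log2 fold change below 0 for C10 against CRS, with a median of -0.31. Summed squamous markers spanned 22.9 to 44.5 CPM in C10, 23.5 to 67.6 in CRS and 29.7 to 168 in CON, and 5 of 6 lay below 0 with a median of -0.74 for C10 against CRS. Ciliated cell markers spanned 483 to 1049 CPM in C10, 460 to 697 in CRS and 662 to 932 in CON, with 7 of 8 above 0 and a median of 0.36. The secretory and goblet list spanned 7723 to 10933 CPM in C10, 5340 to 8719 in CRS and 5224 to 8726 in CON, with 5 of 7 above 0 and a median of 0.51. So the basal and squamous lists lay on the same side as Duox1 and Duoxa1 and the ciliated and secretory lists on the other. Outside the epithelium, bone (6 of 6), B cell (5 of 5), macrophage and monocyte (8 of 11) and fibroblast (7 of 9) markers also lay below 0. Neutrophil markers (7 of 7) lay above 0, and the other lists were mixed. The part of any list in the result was not tested.

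Duox2 and Duoxa2, the inducible pair, were near the limit of detection. Duox2 had 0.383, 0.754 and 1.56 CPM (lowest, median, highest) in C10, 0.0604, 0.495 and 1.51 CPM in CRS, and 0.341, 0.667 and 2.23 CPM in CON, and the 3 groups overlapped. Its log2 fold change was 0.52 ± 0.55 for C10 against CRS, -0.088 ± 0.53 for C10 against CON and -0.61 ± 0.54 for CRS against CON (edgeR adjusted p of 0.639 at the lowest and 0.962 at the highest). The lowest CRS value, in CRS 5, rests on 1 count, and without CRS 2 and CRS 5 the C10 against CRS value was 0.061 ± 0.52. Without CRS 1 it was 1.08, and the CRS against CON value was -1.17 (edgeR adjusted p = 0.326 and 0.186). Duoxa2 had 21 counts over the 6 libraries of C10, 22 in CRS and 16 in CON. It was at 0 counts in 1 C10 library and in 3 CON libraries, while 12 of the 16 CON counts came from CON 3, which also held the highest Duox2 value. A difference in Duoxa2 between the groups was not detectable at this depth.

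Nox4, the constitutively active oxidase of stromal cells, was lower in both papain groups than in CON before adjustment. It had 1.44, 2.60 and 3.30 CPM (lowest, median, highest) in C10, 1.67, 2.48 and 4.89 CPM in CRS, and 2.68, 4.73 and 6.68 CPM in CON. All 6 C10 libraries and 5 of 6 CRS libraries lay below the CON median, and CON overlapped the others through CON 6 at 2.68 CPM and CRS 1 at 4.89 CPM, among others. For C10 against CON the log2 fold change was -0.91 ± 0.29, 1.87-fold lower (edgeR unadjusted p = 0.00625, adjusted p = 0.207; DESeq2 adjusted p = 0.0802). For CRS against CON it was -0.71 ± 0.29 (edgeR unadjusted p = 0.0256, adjusted p = 0.295), and without CRS 2 and CRS 5 it was -0.43 ± 0.29 (edgeR unadjusted p = 0.159), while without CRS 1 it was -0.93 (edgeR adjusted p = 0.0631). C10 and CRS differed by -0.20 ± 0.30 (edgeR adjusted p = 0.841). The groups accounted for 40.9% of the variance of Nox4, more than for 92.1% of genes.

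Fibroblast and endothelial markers lay on the same side of 0 as Nox4. So did smooth muscle (4 of 4), macrophage and monocyte (11 of 11) and bone (6 of 6) markers in both comparisons with CON. Olfactory neuron (7 of 7) and B cell (5 of 5) markers lay above 0 in both. Summed fibroblast markers spanned 2283 to 4891 CPM in C10, 2263 to 7726 in CRS and 3571 to 11302 in CON. For C10 against CON, 9 of 9 fibroblast markers lay below 0 with a median log2 fold change of -0.80, as did 8 of 8 endothelial markers with a median of -0.54. For CRS against CON the same 9 and 8 lay below 0, with medians of -0.61 and -0.50. Summed endothelial markers spanned 245 to 484 CPM in C10, 185 to 822 in CRS and 405 to 751 in CON. With fibroblast and macrophage markers as covariates the Nox4 value was -0.23 for C10 against CON (edgeR adjusted p = 0.689) and -0.19 for CRS against CON (edgeR adjusted p = 0.761).

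The phagocyte oxidase genes varied more between the libraries of a group than between groups, which accounted for 11.3% to 16.7% of their variance. That is an ordinary share, since the median over all genes tested was 15.5%. Cybb, the catalytic subunit, had 38.7, 57.2 and 156 CPM (lowest, median, highest) in C10, 15.3, 71.7 and 259 CPM in CRS, and 71.5, 114 and 244 CPM in CON. Within CRS the highest value, in CRS 1, was 16.9 times the lowest, in CRS 2. Its partner Cyba had 53.8, 67.2 and 96.6 CPM in C10, 25.9, 103 and 177 CPM in CRS, and 71.6, 106 and 178 CPM in CON. The 6 C10 values of Cyba, from 53.8 to 96.6 CPM, stayed closest together and all lay below the medians of CRS and of CON. Ncf1, the subunit that organises assembly once phosphorylated, had 20.2, 29.4 and 43.3 CPM in C10, 7.85, 33.4 and 54.1 CPM in CRS, and 27.5, 41.1 and 60.7 CPM in CON. Ncf4, which binds phosphoinositides of the phagosome, had 7.91, 10.9 and 17.9 CPM in C10, 1.79, 11.9 and 24.8 CPM in CRS, and 11.1, 15.3 and 22.3 CPM in CON. In all 4 genes the 3 groups overlapped and CRS 2 held the lowest value of the 18 libraries.

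None of the 4 passed in any comparison with either tool. For C10 against CRS the log2 fold change was -0.30 ± 0.52 for Cybb, -0.47 ± 0.35 for Cyba, -0.072 ± 0.35 for Ncf1 and -0.047 ± 0.41 for Ncf4 (edgeR adjusted p from 0.6 to 0.976). For C10 against CON it was -0.81 ± 0.52, -0.64 ± 0.35, -0.46 ± 0.35 and -0.39 ± 0.41 in the same order (edgeR adjusted p between 0.44 and 0.716). For CRS against CON it was -0.51 ± 0.52, -0.17 ± 0.34, -0.39 ± 0.35 and -0.34 ± 0.41 (edgeR adjusted p between 0.641 and 0.85). CRS 1, with high values, and CRS 2 and CRS 5, with low ones, moved these values in opposite directions. Without CRS 2 and CRS 5, C10 against CRS gave -0.76 ± 0.46 for Cybb, -0.87 ± 0.26 for Cyba, -0.49 ± 0.26 for Ncf1 and -0.48 ± 0.29 for Ncf4, of which Cyba had the smallest p (edgeR unadjusted p = 0.00345, adjusted p = 0.111). CRS against CON without them gave -0.060 ± 0.46, 0.22 ± 0.26, 0.014 ± 0.26 and 0.082 ± 0.29. Without CRS 1, CRS against CON gave -1.12 for Cybb, -0.41 for Cyba, -0.59 for Ncf1 and -0.65 for Ncf4 (edgeR adjusted p between 0.155 and 0.473), and C10 against CRS gave 0.31, -0.24, 0.13 and 0.26 (edgeR adjusted p between 0.772 and 0.897). For C10 against CRS, 8 of 11 macrophage and monocyte markers lay below 0 with a median of -0.44, while 7 of 7 neutrophil markers lay above 0 with a median of 0.35. For C10 against CON, 11 of 11 macrophage and monocyte markers lay below 0 with a median of -0.76, and 6 of 7 neutrophil markers with a median of -0.24. For CRS against CON all 11 and all 7 lay below 0, with medians of -0.41 and -0.68.

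Across libraries the 4 phagocyte genes varied together. On log2 CPM centred within each group (n = 18 libraries), Pearson's r among them ran from 0.90 to 0.98 and Spearman's rho from 0.87 to 0.96 (permutation test within groups, Benjamini-Hochberg adjusted p from 0.000112 to 0.000187 for r and from 0.00014 to 0.00052 for rho over 28 pairs of genes; the smallest unadjusted p, 1e-05, is the smallest the permutations can give). Ncf1 and Ncf4, both cytosolic subunits, were the closest pair, with r = 0.98, and 0.98 without the 2 libraries farthest from the median. For the 6 pairs r without such libraries was 0.81 to 0.98, and without CRS 2 and CRS 5 it was 0.80 to 0.97. Within groups, r of Ncf1 with Ncf4 was 0.98 in C10, 0.99 in CRS and 0.99 in CON. Duox1 had r from 0.033 to 0.25 to the 4 genes over all libraries, but without CRS 2 and CRS 5 these were 0.58 for Cybb, 0.49 for Cyba, 0.33 for Ncf1 and 0.40 for Ncf4, so the gap to the other genes rested in part on those libraries. Its r with Duoxa1 was 0.42 and its rho 0.48 (permutation adjusted p = 0.129 and 0.0603), and within groups r was 0.70 in C10, -0.017 in CRS and 0.41 in CON. Without CRS 2 and CRS 5 it was 0.57 over the remaining libraries, and whether r differs between groups was not tested. Duoxa1 was closer to the phagocyte genes, with r of 0.71 to Cybb (rho 0.71, permutation adjusted p = 0.00063 and 0.00196; 0.66 without the 2 farthest libraries). Duox2 followed Nox4 with r = 0.81 and rho = 0.82 (permutation adjusted p = 0.000672 and 0.00052; 0.74 without the 2 farthest libraries).

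**Figure D4:**
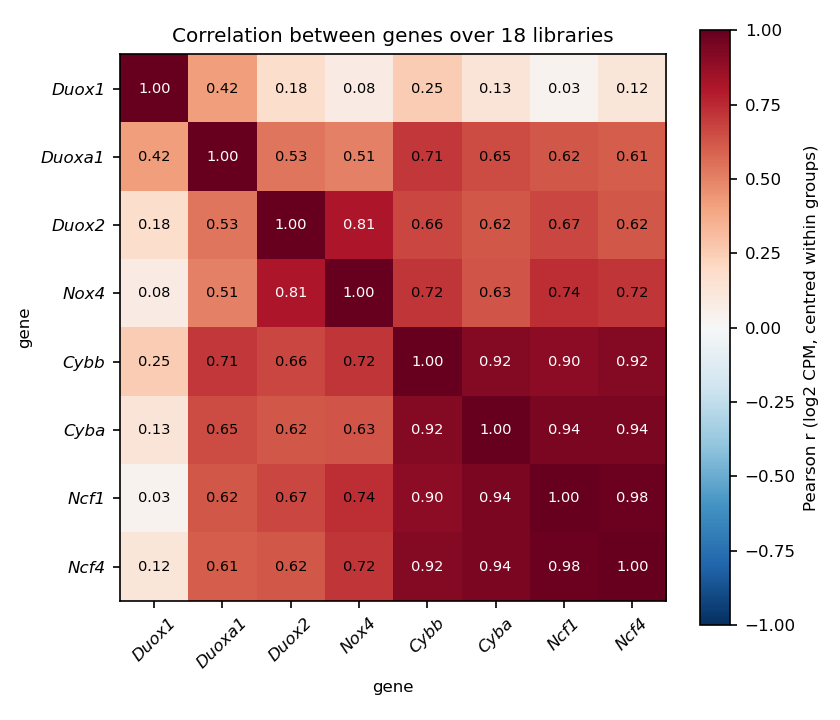
Pearson's r between the 8 tested genes over 18 libraries, on log2 CPM centred within each group, as numbers and colours from -1 (blue) to 1 (red). Cybb, Cyba, Ncf1 and Ncf4 form a block of 0.90 to 0.98, and the row of Duox1 reaches at most 0.42.

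Each oxidase gene was then set against the mean level of 13 cell type marker lists over the 18 libraries, 104 relations in all. Cybb followed the macrophage and monocyte list with r = 0.98 and rho = 0.97 (permutation test, adjusted p = 0.000149 and 0.00026; 0.96 without the 2 farthest libraries), and Cyba, Ncf1 and Ncf4 followed it with r of 0.94, 0.93 and 0.93. The r of Cybb with the neutrophil list was 0.68 (rho 0.67, permutation adjusted p = 0.0214 and 0.0161). It was 0.39 without the 2 farthest libraries, so that relation rested in part on them. Cyba, Ncf1 and Ncf4 had r of 0.80, 0.78 and 0.77 with the neutrophil list (permutation adjusted p = 0.00558, 0.00637 and 0.00629). These were 0.63, 0.60 and 0.54 without the 2 farthest libraries. Nox4 followed endothelial markers with r = 0.89 and rho = 0.88 (permutation adjusted p = 0.000149 and 0.000446) and fibroblast markers with r = 0.87 and rho = 0.83 (0.000578 and 0.00099). Without the 2 farthest libraries these were 0.88 and 0.83. Nox4 also had r = 0.75 with the macrophage and monocyte list (permutation adjusted p = 0.00541). Cybb had r = 0.81 with endothelial and with fibroblast markers (permutation adjusted p = 0.00364 and 0.00189). With smooth muscle markers, by contrast, Nox4 had r = 0.14 and rho = 0.25 (permutation adjusted p = 0.706 and 0.431). Duox2 followed fibroblast markers with r = 0.88 and rho = 0.85 (permutation adjusted p = 0.00039 and 0.000867; 0.80 without the 2 farthest). Duox1 had r = 0.59 and rho = 0.74 with basal cell markers (permutation adjusted p = 0.0306 and 0.00356; 0.53 without the 2 farthest libraries; 0.72 within C10, 0.63 within CRS and 0.48 within CON). With squamous markers its r was 0.33 (permutation adjusted p = 0.279), with ciliated markers -0.010 and with secretory and goblet markers -0.0027. Duoxa1 had r = 0.50 and rho = 0.51 with basal cell markers (permutation adjusted p = 0.0392 and 0.0492). With the macrophage and monocyte list Duoxa1 had r = 0.74 and rho = 0.66 (permutation adjusted p = 0.000756 and 0.00436). Within C10, CRS and CON that r was 0.85, 0.88 and 0.91. The 7 tested genes other than Duox1 had r from -0.76 to -0.87 with the olfactory neuron and sustentacular lists, against -0.30 and -0.29 for Duox1. Without CRS 2 and CRS 5 the values of Duox1 were -0.61 and -0.59, so that difference too rested in part on those libraries. These lists share libraries and move with each other, so a high r does not place a gene in a cell type.

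**Figure D5:**
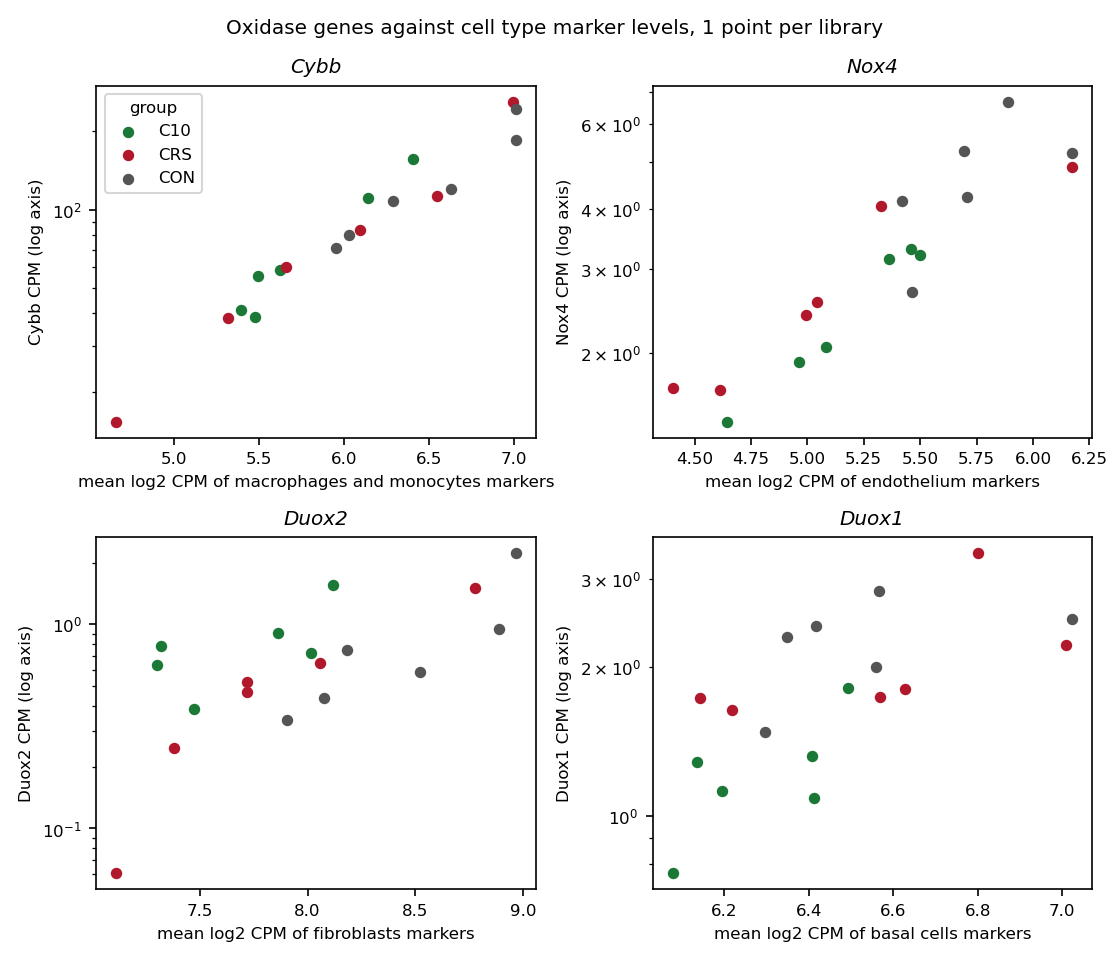
CPM of Cybb, Nox4, Duox2 and Duox1 (log axes) against the mean log2 CPM of macrophage and monocyte, endothelial, fibroblast and basal cell markers, with 1 point per library coloured by group. Cybb lies along 1 line through all groups (r = 0.98 within groups), while most C10 libraries lie below the CRS and CON libraries for Duox1.

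Among the 14976 genes that averaged 1 CPM or more, those whose centred values were most like each oxidase gene were named as a description. For Duox1 these were Adcy2 (r = 0.80), Trp63 (0.78), a transcription factor of basal cells, and Hes1 (0.77), a target of Notch. Duoxa1 was nearest to Cdk2 (0.88), Rcc1 (0.88) and Styx (0.87). Nox4 was nearest to Pdgfb (0.94), a growth factor made by endothelium, Dnajc10 (0.92) and Htra3 (0.92). Cybb was nearest to Il2ra (0.98), Mpeg1 (0.98), a pore-forming protein of macrophages, and Myo1f (0.98). Cyba was nearest to the myeloid genes Tyrobp (0.98), Ctss (0.98) and Lyz2 (0.97). Ncf1 was nearest to Fgr (0.97), Slc11a1 (0.97) and Vav1 (0.97), and Ncf4 to Fgr (0.98), Syk (0.98) and Dok3 (0.97), of which Fgr, Syk and Vav1 act in signalling from myeloid receptors.

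The remaining subunits of these enzymes did not pass in any comparison. Of 9 such genes 7 were tested, and 0 rose and 0 fell with edgeR or DESeq2. At an unadjusted edgeR p under 0.05 there were 0 as well, against 13.1% to 14% of all genes tested. Rac2 had 33.9, 46.4 and 86.5 CPM (lowest, median, highest) in C10, 9.22, 46.3 and 125 CPM in CRS, and 35.1, 61.8 and 81.6 CPM in CON, so the groups overlapped as they did for the other phagocyte genes. The partners of Nox1 were measured more firmly than Nox1 itself, which was near the floor: Noxo1 had a median of 3.08 CPM in C10, 2.70 in CRS and 2.86 in CON, and Noxa1 of 1.52, 1.18 and 1.09 CPM, while Nox1 had 13, 6 and 14 counts over the group and Nox3 0, 3 and 0.

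Enzymes that use or remove hydrogen peroxide did not pass either, with 0 of 2 tested peroxidases and 0 of 12 removal genes called by edgeR or DESeq2 in each comparison. At an unadjusted edgeR p under 0.05 stood 3 of these 14 genes for C10 against CRS, 3 for C10 against CON and 4 for CRS against CON. Over all genes tested the shares at that threshold, in either direction, were 13.2%, 13.1% and 14% in the same order. Lactoperoxidase (Lpo), the airway partner of DUOX, had 116 counts over the C10 libraries, 96 over the CRS libraries and 68 over the CON libraries. Its log2 fold change was 0.86 ± 0.45 for C10 against CON (edgeR adjusted p = 0.427). For CRS against CON it was 0.62 ± 0.45 and for C10 against CRS 0.24 ± 0.44 (edgeR adjusted p = 0.553 and 0.875). Pxdn, a peroxidase of basement membranes, had values of -0.39 ± 0.14 for C10 against CON (edgeR adjusted p = 0.26) and -0.36 ± 0.14 for CRS against CON (edgeR adjusted p = 0.282). Gpx4, which removes lipid peroxides, averaged 382 ± 41.6 CPM in C10, 483 ± 102 in CRS and 382 ± 28.3 in CON (SD, n = 6 each). Its log2 fold change was -0.34 ± 0.12 for C10 against CRS (edgeR adjusted p = 0.212) and 0.34 ± 0.12 for CRS against CON (edgeR adjusted p = 0.231). Prdx2, a cytosolic peroxiredoxin, had -0.19 ± 0.086 and 0.26 ± 0.087 in the same comparisons (edgeR adjusted p = 0.355 and 0.229). Without CRS 1 the CRS against CON values of Pxdn (-0.51, edgeR adjusted p = 0.0231), Gpx4 (0.41, 0.0384) and Prdx2 (0.30, 0.0479) passed. In that fit 994 genes of any kind passed for CRS against CON, against 1 of 18291 with all libraries. Mpo, of neutrophil granules, had 80, 30 and 394 counts in C10, CRS and CON, and Epx, of eosinophils, 24, 6 and 59, too few in most libraries to be tested. The CON totals were uneven: Epx was at 0 in 5 CON libraries, and Mpo had a CON median of 0.115 CPM and a highest value of 15.6 CPM.

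Of 8 other enzymes that make oxidants, 0 passed with edgeR or DESeq2, and 3 for C10 against CRS, 2 for C10 against CON and 2 for CRS against CON had an unadjusted edgeR p under 0.05. Of all genes tested, 13.2%, 13.1% and 14% did so in the same order. Those 3 for C10 against CRS were above 0: xanthine dehydrogenase Xdh stood at 0.38 ± 0.11 (edgeR adjusted p = 0.167), the monoamine oxidase Maob at 0.63 ± 0.20 (edgeR adjusted p = 0.191) and the aldehyde oxidase Aox2 at 0.52 ± 0.21 (edgeR adjusted p = 0.278). Aox2 averaged 413 ± 81.8 CPM in C10, 288 ± 93.4 in CRS and 283 ± 70.2 in CON (SD, n = 6 each). With olfactory neuron markers as a covariate Aox2 (0.56, edgeR adjusted p = 0.000466) and Maob (0.62, edgeR adjusted p = 0.00258) passed for C10 against CRS. That fit also called many more genes of any kind than the 15 without covariates, as given in the closing section. Xdh, Maob and Aox2 lay on the opposite side of 0 from Duox1 and Duoxa1 for C10 against CRS.

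Signals known to act on these oxidases were low or did not pass with all libraries in the fit. Of 13 cytokine and receptor genes known to raise DUOX expression 11 were tested and 0 passed with edgeR or DESeq2 (0, 0 and 1 at an unadjusted edgeR p under 0.05 in C10 against CRS, C10 against CON and CRS against CON), with medians of 0.10 for C10 against CRS, -0.23 for C10 against CON and -0.25 for CRS against CON. The shares of all genes tested at that unadjusted p were 13.2%, 13.1% and 14% in the same order. Il13 had 4, 14 and 1 counts in C10, CRS and CON, and Ifng 50, 41 and 58, and neither was tested. The CRS counts of Il13 were uneven: 3 CRS libraries were at 0, the median was 0.029 CPM and the highest value 0.742 CPM. Il4ra, the receptor chain shared by IL-4 and IL-13, had -0.36 ± 0.22 for C10 against CON and -0.46 ± 0.22 for CRS against CON (edgeR adjusted p = 0.495 and 0.356). Without CRS 1 it passed for CRS against CON at -0.72 (edgeR adjusted p = 0.0257), as did Il1b at -1.94 (0.0353) and the complement receptor C5ar1 at -1.48 (0.0363), against -1.21 ± 0.56 and -0.84 ± 0.46 with all libraries (edgeR adjusted p = 0.341 and 0.418). In the fit without CRS 1, 994 genes of any kind passed for CRS against CON, against 1 of 18291 with all libraries. Of 12 receptors and kinases upstream of the phagocyte oxidase 0 passed with either tool (0, 2 and 0 at an unadjusted edgeR p under 0.05), and 12 of 12 lay below 0 for C10 against CON with a median of -0.54. Clec7a, the receptor for fungal glucans, had the most negative value of these 12 for C10 against CON, -1.10 ± 0.47 (edgeR adjusted p = 0.325). The Fc receptor Fcgr3 had -0.98 ± 0.37 there (edgeR adjusted p = 0.273).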

How the data were processed

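Per the labels' protocols, libraries were made from poly(A) RNA of nasal mucosa with a kit not stated to keep the strand. A deposited table holds whole-number read counts for each gene. The FPKM that the authors deposited beside it follow from those counts and gene lengths, with library sizes 0.877 to 1.08 times the column totals. The genome build is mm10, per the submitters' processing notes; the sources used here do not give the aligner, the counting tool or the annotation. All columns matched a library and 0 were left over. Groups follow the sample titles.

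Counts were tested with edgeR 4.0.16 in R 4.3.3: filterByExpr by group (18291 of 54532 genes kept), TMM factors, quasi-likelihood F-tests on all 18 libraries with 1 mean per group, two-sided, Benjamini-Hochberg over all genes tested, called under 0.05. CPM uses TMM-scaled library sizes, and FPKM was used only to order genes by level. Each SE was obtained by dividing the absolute log2 fold change by the root of its F statistic. DESeq2 1.42.0 was run on the same genes. Other alternatives were RLE size factors, testing unfiltered genes, requiring 1 CPM in 6 libraries, a block on replicate number, only the groups compared, marker covariates, CRS 2 and CRS 5 left out, and each library left out in turn. Correlations used log2 CPM (prior count 2) centred within groups, with 100000 permutations within groups, in Python 3.11.15. Overlaps use GENCODE gene models. The scripts were tested on simulated data.

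The oxidase genes and lists were chosen with earlier results of these data known. Named genes are all 9 oxidase genes, genes of 6 pathway lists and, per oxidase gene with a mean of at least 1 CPM, the 3 genes with the highest r. No columns were repeat counts of 1 library: chi-square per degree of freedom was at least 14.1 in each of 153 pairs. A few items of the lists are not reported here.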

Additional observations from a re-analysis of the deposited data

Results flagged for a closer look

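In 27 sets of 6 values, 1 per oxidase gene and group, 3 had a library far from the rest by Dixon's test, which flags about 1 in 20 sets by chance. Duox1 stood at 3.38 CPM in CRS 5, against a next value of 2.21 CPM in the other CRS libraries. Duox2 stood at 2.23 CPM in CON 3, against a next value of 0.946 CPM in CON. Duoxa2 stood at 0.652 CPM in CON 3, against a next value of 0.167 CPM in CON.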

How the results depend on the processing

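Of 644 values recomputed over 27 alternatives, 607 kept their direction and side of the threshold, 3 passed it (named above) and 34 changed sign, all in oxidase genes that had not passed. With each library left out in turn, 0 oxidase genes were called in each comparison, while genes called ran from 0 to 994 for CRS against CON (994 without CRS 1), from 7 to 81 for C10 against CRS (7 without C10 3, 81 without CRS 2) and from 3 to 110 for C10 against CON (3 without C10 4, 110 without CRS 1). Pathway genes called ran from 0 to 6 for CRS against CON and stayed at 0 in the others. The genes called for CRS against CON were 3 under the stricter filter, 0 in a fit of only the groups compared, 179 with DESeq2, 2 with the olfactory covariate and 7 with the fibroblast and macrophage covariates. For C10 against CRS they were 23, 9, 350, 731 and 851 in that order, and 100 without CRS 2 and CRS 5. For C10 against CON they were 17 without a filter, 161 in a fit of only the groups compared, 318 with DESeq2, 304 and 197 with those covariates, and 74 without CRS 2 and CRS 5. Oxidase genes called were 1 (Duoxa1) with either covariate choice for C10 against CRS and 1 (Duox1) with DESeq2 for C10 against CON. Pathway genes called were 2 (Aox2, Maob) and 4 (these, Xdh and Ifngr1) with those covariates for C10 against CRS, and 1 (Aox2) and 2 (Itgb2, Ifngr1) for C10 against CON. These last stood above 0 there, at 0.46 and 0.42, against -0.60 and -0.25 without covariates.

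The replicate numbers are not said to pair the libraries, and correlations alone cannot settle whether they do. Same-numbered libraries of different groups correlated at -0.574 to 0.519, over 0.1 in 8 of 18 pairs, and 5 of 18 libraries were closest to their own number. With the replicate block 0 genes were called for CRS against CON and 12 for C10 against CON, and Ncf1 and Ncf4 stood at 0.094 and 0.16 for C10 against CRS. With the fibroblast and macrophage covariates CRS against CON gave 0.44 for Duox2, 0.073 for Cybb, 0.26 for Cyba, 0.094 for Ncf1 and 0.065 for Ncf4, C10 against CRS 0.20 for Cybb, 0.26 for Ncf1 and 0.39 for Ncf4, and C10 against CON 1.45 for Duox2, 0.28 for Cybb, 0.13 for Cyba, 0.36 for Ncf1 and 0.46 for Ncf4. The olfactory covariate gave 0.074 for Ncf1 and 0.14 for Ncf4 in C10 against CRS and 0.35 for Duox2 in C10 against CON. Without CRS 2 and CRS 5, CRS against CON gave 0.22 for Cyba, 0.014 for Ncf1 and 0.082 for Ncf4. With 1 library left out, Cyba ranged from -0.41 to 0.036 for CRS against CON, Nox4 from -0.33 to 0.021, Cybb from -0.64 to 0.31, Ncf1 from -0.29 to 0.13 and Ncf4 from -0.29 to 0.26 for C10 against CRS, and Duox2 from -0.36 to 0.44 for C10 against CON. The cause of these changes was not tested. Duox1, Duoxa1, Duox2 and Duoxa2 rest on at most 56 counts per library, which limits what can be called.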
